A study of Mus musculus with 10 samples.

Results

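A set of 9 genes that mark progression and lineage infidelity in KP lung tumours were followed across 10 tumours: Hmga1, Hmga2, Lin28b, Hnf4a, Pdx1, Runx1, Runx2, Gkn2 and Onecut2. Members were the rows of the deposited count table whose gene symbol equalled 1 of these names, which found 9 of 9 among 39017 genes. Of these, 7 passed the filter on low counts and were tested among 16216 genes, while Pdx1 and Lin28b were too low.

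The study asked what loss of the glucose transporter Glut1, encoded by Slc2a1, does in a mouse model of lung adenocarcinoma. All animals were C57BL/6 males in which an adenovirus delivered Cre to the airways under the SPC promoter, which limits recombination to cells making surfactant protein C. The 5 KP tumours were controls and the 5 KPG1 tumours carried the genotype homozygous fl/fl at the floxed transporter gene. Tumours were macrodissected 18 weeks and 6 days after initiation, and RNA came from the cells left after magnetic removal of CD45-positive leukocytes. The genotype label of the controls reads heterozygous fl/wt while their description reads WT, and the study's methods allow either, so KP stands for the group labelled Control. The labels do not say whether each tumour came from a separate animal, so p-values measure the spread between these samples only. Slc2a1 stood at 78.8, 127, 123, 109 and 71.7 CPM (counts scaled to library depth with TMM factors) in KP replicates 1 to 5 and at 47.3, 66.8, 40.8, 51.3 and 44.3 CPM in KPG1 replicates 1 to 5. The groups did not overlap, in the direction of the labels (exact permutation p = 0.00794, two-sided, the smallest this design allows). In limma the adjusted p of Slc2a1 was 0.0675, with a log2 fold change of -1.01.

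In this model, alveolar cells that turn into tumours first keep their lung identity and later switch on genes of other tissues and of the embryo. Hnf4a, Pdx1 and Onecut2 are transcription factors that specify cell identity in the stomach, gut, pancreas or liver. Gkn2 encodes a secreted protein of the stomach lining. These data hold no normal lung, so whether Gkn2 was switched on in the tumours or already made in lung cannot be told. Hmga2 and Lin28b are oncofetal genes, silent in most adult tissue, and both are held down by the let-7 microRNAs, whose maturation Lin28b blocks in return. RUNX factors are DNA-binding partners of CBF beta that direct blood and bone development.

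Of the 7 tested members, 0 passed an adjusted p of 0.05 in limma in either direction, beside 0.111% of all genes lower and 0.0617% higher in KPG1. The fitted level was lower in KPG1 for 7 of 7, where 7669 of all 16216 genes were lower and 8547 higher. Their log2 fold changes had a median of -0.57, against 0.02 over all genes tested. At an unadjusted p under 0.05, 4 of 7 members (Hmga1, Hmga2, Hnf4a and Onecut2) were lower, against 6.31% of all genes, and 0 were higher, against 5.26%. As the members were chosen with earlier results of these data known, setting them against all genes is no independent test. The quasi-likelihood test of edgeR called 0 members and DESeq2 called 3 (Hmga1, Hmga2 and Onecut2, adjusted p = 0.0245, 0.0221 and 0.0256), where these tools called 0.179% and 2.61% of all genes lower. Without KP replicate 5, limma called 1 member, Hmga2 (adjusted p = 0.0386), and 1.35% of all genes lower. In bulk RNA, fewer cells expressing a gene and less RNA per cell cannot be told apart.

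**Figure D1:**
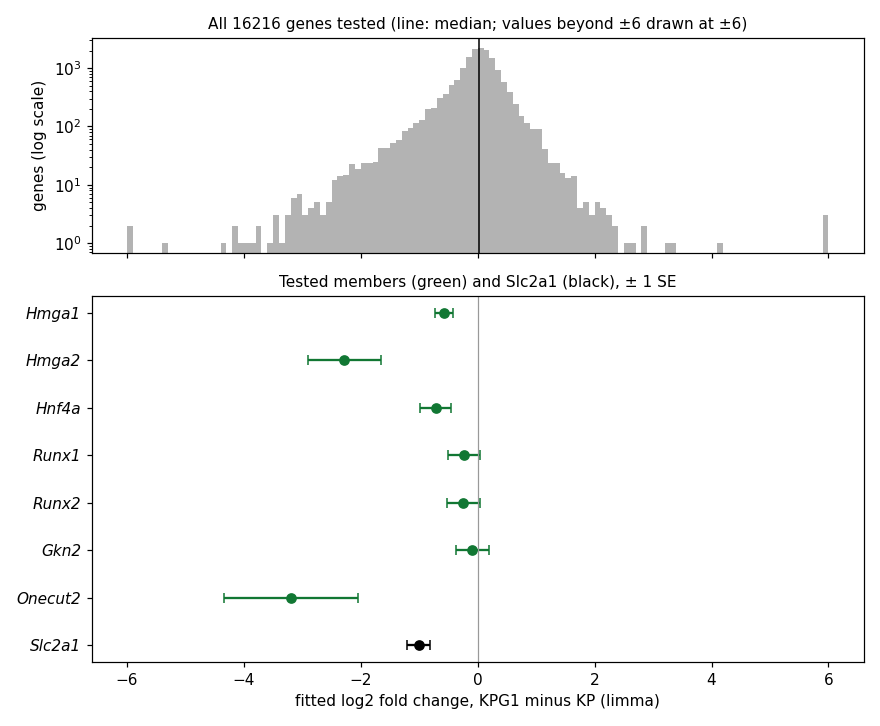
The upper panel counts all 16216 genes tested by fitted log2 fold change (KPG1 minus KP, log-scaled gene count), and the lower panel gives the 7 tested members and Slc2a1 with 1 SE. Hmga2 (-2.28) and Onecut2 (-3.19) lie farthest from 0 among the members and have the widest errors, while Gkn2 (-0.09) lies nearest.

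Hmga1 and Hmga2 encode AT-hook proteins that bind the minor groove of AT-rich DNA and open chromatin. Hmga1 (ENSMUSG00000046711, mm10 chr17:27556497-27563674, plus strand) stood at 48.1, 39.2, 52.1, 39.2 and 34.9 CPM in KP replicates 1 to 5 and at 24.3, 31.3, 23.3, 34.6 and 30.4 CPM in KPG1 replicates 1 to 5. Each KPG1 tumour was below each KP tumour, a separation seen for 1.76% of all genes tested (1.05% were separate with KPG1 higher), but the gap was narrow, from 34.9 CPM in the lowest KP tumour to 34.6 CPM in the highest KPG1 tumour. Mean levels were 42.7 ± 7.14 CPM in KP and 28.8 ± 4.80 CPM in KPG1 (SD, n = 5 each, exact permutation p = 0.00794). The log2 fold change of Hmga1 was -0.57 (SE 0.16, limma adjusted p = 0.206).

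Hmga2 (ENSMUSG00000056758, mm10 chr10:120361275-120476469, minus strand) stood at 44.0, 19.8, 37.4, 41.0 and 10.01 CPM in KP replicates 1 to 5 and at 1.71, 4.27, 4.51, 8.06 and 20.9 CPM in KPG1 replicates 1 to 5. The groups overlapped through KPG1 replicate 5, whose level exceeded those of KP replicates 2 and 5, while the other 4 KPG1 tumours lay below all KP tumours. The KPG1 mean of 7.89 ± 7.63 CPM was 25.9% of the KP mean of 30.4 ± 14.8 CPM (SD, n = 5 each, exact permutation p = 0.0238). Its log2 fold change was -2.28 (SE 0.63, limma adjusted p = 0.206). Annotated genes lie inside or opposite it (Mir763, 1700006J14Rik and 9230105E05Rik), and the strand setting of the count is not stated in the sources used here. Opposite-strand genes also overlap Hmga1 (AI413582 and Gm49774), Hnf4a (Hnf4aos) and Runx1 (Gm26626), and Gm25881 overlaps Hnf4a on the same strand.

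**Figure D2:**
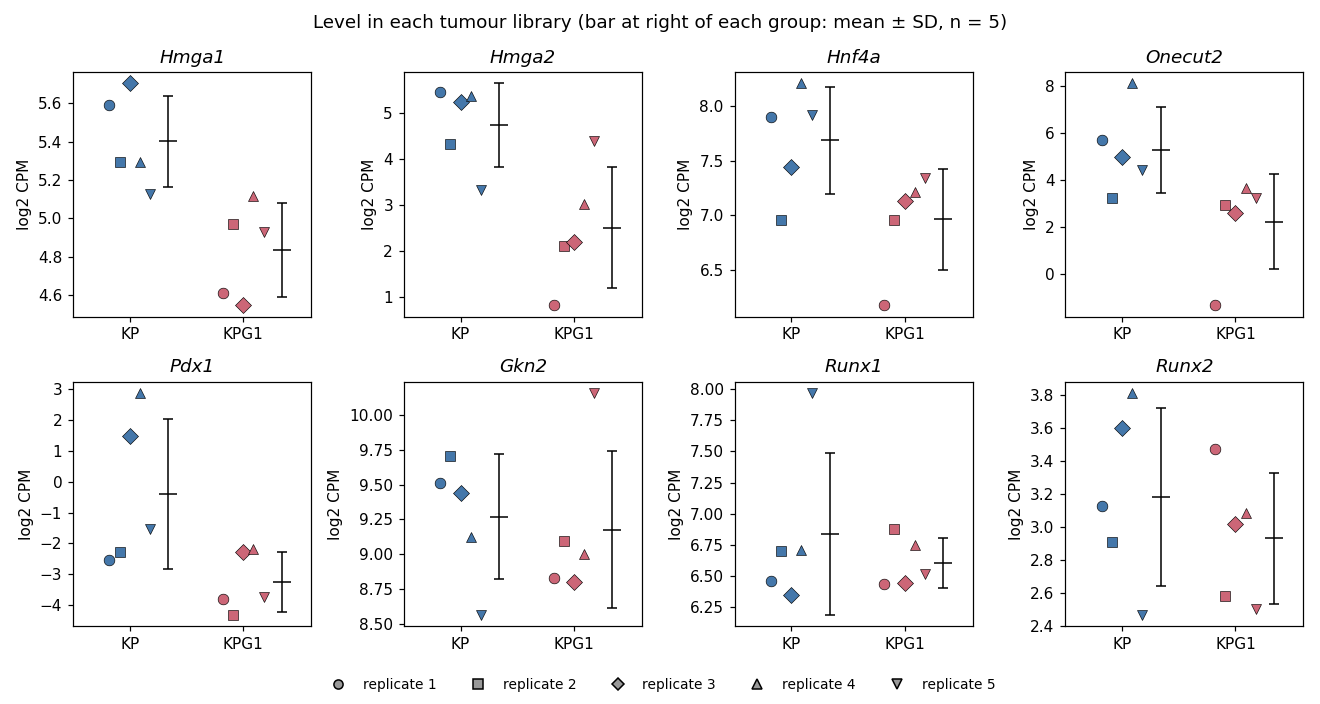
Each panel shows 1 member detected in these tumours, on a log2 CPM scale (prior count 2), in 5 KP (blue) and 5 KPG1 (red) libraries, with the mean and SD of each group at its right and marker shapes for the replicate number. Only Hmga1 has separate groups, from 34.9 CPM down to 34.6 CPM, and single tumours stand far off for Runx1 (KP replicate 5, 251 CPM), Gkn2 (KPG1 replicate 5, 1144 CPM) and Onecut2 (KPG1 replicate 1, 0.350 CPM).

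Since Hmga2 and Lin28b are both known targets of let-7, the family is shown with its seed, bases 2 to 8 of the mature RNA, in capitals. In the RefSeq miRNA table (GRCm38.p6), 10 of 11 names of the family carried the same seed as let-7a, and 4 of them are printed here.
mmu-let-7a-5p: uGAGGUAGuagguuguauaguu
mmu-let-7d-5p: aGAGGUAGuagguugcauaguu
mmu-let-7g-5p: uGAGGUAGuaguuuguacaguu
mmu-miR-98-5p: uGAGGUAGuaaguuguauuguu

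A match to this seed in DNA letters is CTACCTC, its reverse complement. In GENCODE M21, 8.68% of 21832 coding genes held this match in their longest 3′ UTR. Hmga2 held 4 matches in 3014 bases and Lin28b 4 in 4445 bases, a number reached by 0.055% of genes. That share takes no account of length, and the median longest 3′ UTR had 906.5 bases. Hmga1 held 1 in 1183 bases and Onecut2 1 in 14356 bases, while Hnf4a, Pdx1, Runx1, Runx2 and Gkn2 held none. The 4 Hmga2 matches begin 58, 1295, 1733 and 2591 bases after the stop codon and are shown with the match in capitals, in mm10 coordinates. A match describes the letters only and was not tested as a working site.
Hmga2 site 1, chr10:120364224-120364246, minus strand: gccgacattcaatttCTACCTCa
Hmga2 site 2, chr10:120362987-120363009, minus strand: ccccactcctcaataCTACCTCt
Hmga2 site 3, chr10:120362549-120362571, minus strand: ctgatttgcaaggaaCTACCTCc
Hmga2 site 4, chr10:120361691-120361713, minus strand: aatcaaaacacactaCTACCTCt

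Lin28b (ENSMUSG00000063804, mm10 chr10:45376620-45486395, minus strand), the RNA-binding protein that blocks let-7 maturation, had 0 counts in 10 of 10 libraries. A count of 0 allows up to 3 counts, or 0.0656 to 0.0943 CPM in these libraries, counting error only, so Lin28b RNA was not detectable at this depth and no difference between groups could be tested. The wider let-7 and Lin28 list held 24 genes, of which 23 were in the table and 19 were tested. None of the 19 passed an adjusted p of 0.05 in limma. At an unadjusted p under 0.05, 1 was higher and 4 were lower, against 5.26% and 6.31% of all genes. The median log2 fold change was 0.03, close to the 0.02 of all genes. Igf2bp2, an oncofetal mRNA-binding protein, ranged from 20.6 to 66.3 CPM in KP and from 6.21 to 17.9 CPM in KPG1, with no overlap (log2 fold change -1.90, SE 0.39, adjusted p = 0.0857). Myc, the growth-promoting transcription factor, ranged from 60.1 to 85.3 CPM in KP and from 33.6 to 52.4 CPM in KPG1, also with no overlap (log2 fold change -0.62, SE 0.15, adjusted p = 0.142). Mycn lay the other way, at 17.8 to 40.0 CPM in KP and 21.5 to 82.6 CPM in KPG1 (log2 fold change 0.79, adjusted p = 0.420). Of 10 HMG proteins tested, 5 had higher and 5 lower fitted levels in KPG1, with Hmga1 and Hmga2 among the lower.

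Hnf4a (ENSMUSG00000017950, mm10 chr2:163506808-163572910, plus strand) encodes a nuclear receptor that specifies liver, gut and gastric-type cells. It stood at 239, 124, 174, 297 and 242 CPM in KP replicates 1 to 5 and at 72.0, 124, 140, 149 and 162 CPM in KPG1 replicates 1 to 5. KP replicate 2 fell within the KPG1 range, level with KPG1 replicate 2, and KPG1 replicate 1 was the lowest of the 10. Means were 215 ± 67.1 CPM in KP and 129 ± 35.0 CPM in KPG1 (SD, n = 5 each, exact permutation p = 0.0476), with a log2 fold change of -0.72 ± 0.27 (SE, adjusted p = 0.337 in limma). Without KP replicates 1 and 4, an alternative added after the data were seen, it was -0.47 (adjusted p = 0.697).

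Hnf4a is transcribed from a pair of promoters, and counts per gene do not tell them apart. Both RefSeq windows (GRCm38.p6, 250 bases before to 50 after a start) are shown because Hnf4a and Onecut2 were the pair of members with the highest correlation within groups, which missed the threshold after adjustment (p = 0.0831 by exact permutation). Capitals mark matches on either strand to ATTGAT (Onecut factors, in 7.54% of 32851 promoters), TGTGGT (RUNX, 16.8%), CAAAGT (HNF4, 14.4%), CCAAT (37.4%) or CACGTG (E box, 7.15%).
Hnf4a window 1, chr2:163506607-163506906, plus strand: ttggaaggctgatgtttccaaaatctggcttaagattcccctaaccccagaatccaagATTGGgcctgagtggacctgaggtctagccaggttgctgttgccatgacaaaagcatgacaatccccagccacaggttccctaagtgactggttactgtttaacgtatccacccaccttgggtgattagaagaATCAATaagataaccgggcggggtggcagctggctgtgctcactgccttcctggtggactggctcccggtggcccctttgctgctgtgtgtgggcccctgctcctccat
Hnf4a window 2, chr2:163546905-163547204, plus strand: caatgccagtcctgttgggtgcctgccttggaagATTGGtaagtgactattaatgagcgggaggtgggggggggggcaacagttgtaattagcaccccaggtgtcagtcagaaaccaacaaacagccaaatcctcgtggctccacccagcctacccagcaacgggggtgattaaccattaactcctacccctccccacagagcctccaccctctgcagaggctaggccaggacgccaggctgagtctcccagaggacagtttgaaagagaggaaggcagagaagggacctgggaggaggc
The window at the gene's far start held 1 Onecut match, at position -59 from the start, and 1 CCAAT match. The inner window held 1 CCAAT match and no Onecut match. RUNX, HNF4 and E box letters were absent from these windows.

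Gkn2 (ENSMUSG00000030049, mm10 chr6:87373357-87379497, plus strand) encodes gastrokine 2, a secreted protein of the stomach lining. It stood at 730, 836, 696, 557 and 378 CPM in KP replicates 1 to 5 and at 455, 547, 447, 512 and 1144 CPM in KPG1 replicates 1 to 5. The groups overlapped broadly, and KPG1 replicate 5 was the highest of all 10 tumours. With means of 640 ± 177 CPM in KP and 621 ± 295 CPM in KPG1 (SD, n = 5 each), the difference was smaller than the spread (exact permutation p = 0.786, log2 fold change -0.09, SE 0.28, limma adjusted p = 0.925). Per kilobase of exon Gkn2 was the most abundant member, at a KP median of 883 CPM per kilobase, above Hnf4a at 49.6, Hmga1 at 18.4, Runx1 at 8.67, Hmga2 at 5.52, Onecut2 at 1.94, Runx2 at 0.983 and Pdx1 at 0.138.

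Onecut2 (ENSMUSG00000045991) encodes a cut-homeodomain factor of liver, pancreas and gut. It stood at 52.2, 9.33, 31.5, 276 and 21.1 CPM in KP replicates 1 to 5 and at 0.350, 7.58, 6.05, 12.7 and 9.30 CPM in KPG1 replicates 1 to 5. KP replicate 4 stood far above the other tumours, and KP replicate 2 lay inside the KPG1 range. The highest tumour was 29.6 times the lowest within KP and 36.2 times the lowest within KPG1. Means were 78.0 ± 112 CPM in KP and 7.19 ± 4.54 CPM in KPG1 (SD, n = 5 each, exact permutation on log2 CPM p = 0.0159), with a log2 fold change of -3.19 ± 1.15 (SE, adjusted p = 0.325 in limma). Without KP replicates 1 and 4 the log2 fold change was -2.11 (adjusted p = 0.579).

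Pdx1 (ENSMUSG00000029644, mm10 chr5:147269959-147275848, plus strand), the homeobox factor of pancreas and lower stomach, had 5, 5, 101, 310 and 13 counts in KP replicates 1 to 5 and 1, 0, 7, 6 and 1 in KPG1 replicates 1 to 5. In CPM these were 0.121, 0.157, 2.73, 7.32 and 0.299 in KP and 0.0219, 0, 0.159, 0.171 and 0.0257 in KPG1. KP replicates 3 and 4 held nearly all Pdx1 reads, and the other 8 tumours held at most 13 counts each. The group means of log2 CPM (prior count 2) differed by -2.86 (exact permutation p = 0.0476), and by -3.61 with a prior count of 0.5, so the size depends on the prior at these counts. With no filter on low counts limma gave an adjusted p of 0.343 for Pdx1. An antisense gene, Plut, lies opposite it.

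KP replicate 4 was the highest tumour for 4 of the 8 detected members (Hnf4a, Onecut2, Pdx1 and Runx2). Of the 23 tested genes of the gastric and intestinal list outside the members, 10 were highest in KP replicate 4 and 4 in KP replicate 1, where 10.7% and 15.3% of all genes tested were highest in these tumours. In KP replicate 4, Tff1 and Tff2, trefoil peptides of gastric mucus, stood at 815 and 65.0 CPM, against at most 75.3 and 5.48 CPM in the other 9. Tff3, a trefoil gene of the same list, did not follow them, at 5.88 CPM in KP replicate 4 and 37.4 CPM in KP replicate 3, its highest tumour. Krt20, an intestinal keratin, stood at 369 CPM there against at most 75.1 CPM in the other 9. The summed level of 20 lung lineage genes was 20600 CPM in KP replicate 1 and 32010 CPM in KP replicate 4, below the 53500 to 98510 CPM of the other 8 tumours. That sum is weighted to surfactant genes and says little of the transcription factors. Mean log2 CPM in KP was 13.91 for Sftpb, 13.29 for Sftpc and 12.85 for Sftpa1, against 7.91 for Nkx2-1 and 6.01 for Foxa1. In KP replicate 1, Hmga2 was the highest of the 10 tumours and Onecut2 the second highest, while Pdx1 was the lowest of the KP tumours. The part of the lung lineage level in the members' levels was not tested.

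**Figure D3:**
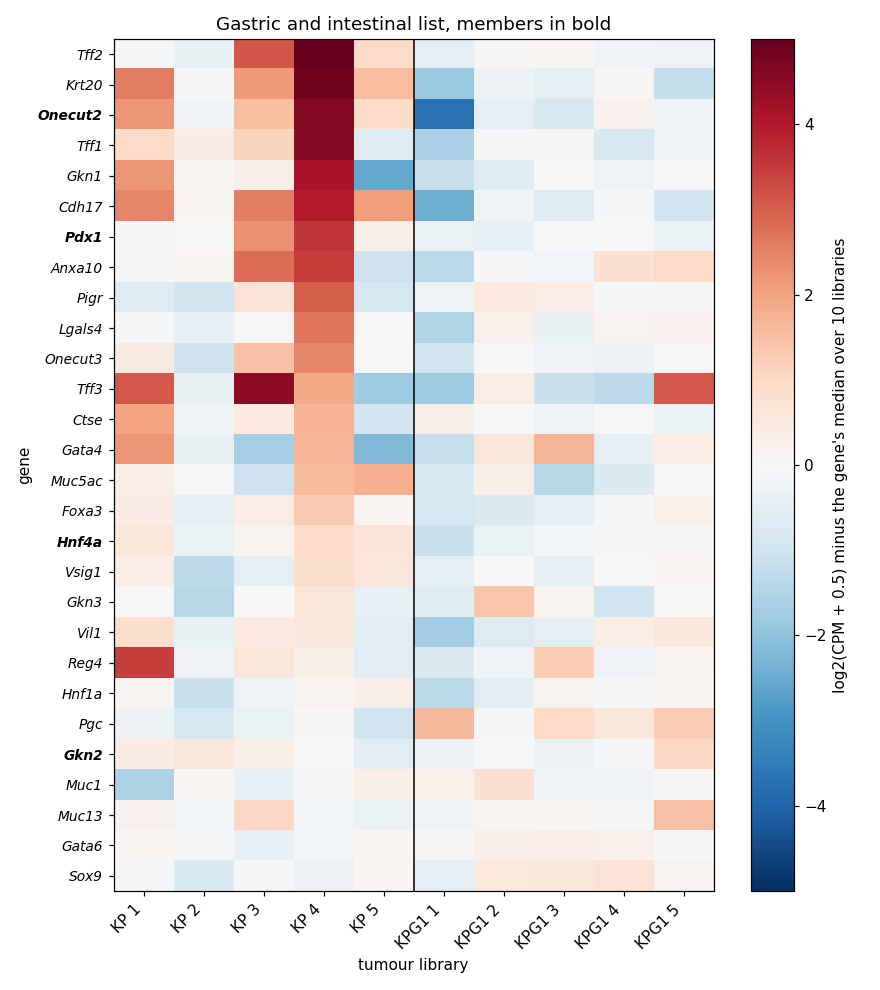
Colours give log2 (CPM + 0.5) minus the gene's median over the 10 libraries, for 28 of the 29 list genes that reached 1 CPM in any library, ordered by KP replicate 4, with members in bold. KP replicate 4 is red for the upper rows, Tff2 to Onecut3, while Sox9 and Gata6 vary little.

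Across groups, 26 of the 35 list genes were tested, 19 with lower and 7 with higher fitted levels in KPG1, at a median log2 fold change of -0.69. Over all 16216 genes tested, 7669 were lower and 8547 higher. None of the 26 passed an adjusted p of 0.05 in limma. At an unadjusted p under 0.05, 6 were lower and 1 was higher, against 6.31% and 5.26% of all genes. Cdh17, an intestinal cadherin, ranged from 3.05 to 50.6 CPM in KP and from 0.109 to 2.57 CPM in KPG1, with no overlap (log2 fold change -3.90, SE 0.98, adjusted p = 0.171). Krt20 ranged from 11.8 to 369 CPM in KP and from 3.06 to 13.0 CPM in KPG1 (log2 fold change -3.08, adjusted p = 0.239). Pgc, the pepsinogen of stomach chief cells that is also made in alveolar type 2 cells, was higher in KPG1, at 2.94 to 6.68 CPM in KP and 5.97 to 20.3 CPM in KPG1 (log2 fold change 1.47, adjusted p = 0.168).

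Of the 20 lung lineage genes, 17 had higher fitted levels in KPG1 (median 0.33 on the log2 scale), against 8547 of all 16216 genes. None of the 20 passed an adjusted p of 0.05. At an unadjusted p under 0.05, 4 were higher and 1 lower, against 5.26% and 6.31% of all genes. Sftpc, the surfactant protein whose promoter drove Cre, ranged from 5370 to 19890 CPM in KP and from 17480 to 40180 CPM in KPG1 (log2 fold change 1.22, adjusted p = 0.272). Id2 was higher and Klf5 lower in KPG1 by 0.67 and -0.45 on the log2 scale (adjusted p = 0.257 and 0.338).

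Runx1 (ENSMUSG00000022952, mm10 chr16:92601466-92826149, minus strand) stood at 88.2, 104, 81.6, 104 and 251 CPM in KP replicates 1 to 5 and at 86.5, 118, 87.3, 107 and 91.6 CPM in KPG1 replicates 1 to 5. Apart from KP replicate 5 the groups overlapped broadly. The means were 126 ± 70.5 CPM in KP and 98.1 ± 13.8 CPM in KPG1 (SD, n = 5 each, exact permutation p = 0.659), and the log2 fold change of -0.23 ± 0.27 (SE, adjusted p = 0.781 in limma) became 0.04 without KP replicate 5 (adjusted p = 0.918). KP replicate 5 also had the lowest summed proliferation level, 177 CPM against 481 to 796 CPM in the other 9, and a leukocyte marker sum of 71.5 CPM inside the KP range of 59.6 to 105 CPM. KP replicate 5 was also unusual over all genes tested, of which 22.2% were highest there, against 4.87% to 15.3% in the other 9. Its TMM factor was the lowest, at 0.8795 against 0.9713 to 1.095 in the other 9. The Runx1 level in KP replicate 5 is therefore not shown to be particular to this gene. The part of any of these in the Runx1 level was not tested.

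Runx2 (ENSMUSG00000039153, mm10 chr17:44495987-44814797, minus strand), the factor that directs bone formation, stood at 8.69, 7.45, 12.1, 14.0 and 5.47 CPM in KP replicates 1 to 5 and at 11.1, 5.92, 8.04, 8.43 and 5.60 CPM in KPG1 replicates 1 to 5. The KPG1 range lay within the KP range. The difference of the means was smaller than the spread (exact permutation p = 0.421, log2 fold change -0.24, SE 0.29, limma adjusted p = 0.788). The Runx2os antisense genes and Supt3 lie opposite it. Of 19 genes for RUNX factors, partners and bone targets, 15 were tested, 0 passed an adjusted p of 0.05, and the median log2 fold change was -0.02. At an unadjusted p under 0.05, Tle1 (0.44) and Ibsp (1.19) were higher and 3 genes were lower, among them Spp1 (-0.90), the secreted osteopontin, and Mmp9 (-1.82), a matrix protease, in log2 fold changes with adjusted p from 0.250 to 0.425. Over all genes tested, 5.26% were higher and 6.31% lower at that unadjusted p.

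Within groups, the members differed widely in how much they varied. Onecut2 had an SD of log2 CPM of 1.82 in KP and 2.02 in KPG1, above 98.3% and 99.4% of all genes tested, where the median gene had 0.39 and 0.26. Without KPG1 replicate 1 the KPG1 value was 0.45, and without KP replicate 4 the KP value was 1.05. Hmga2 followed, with 0.91 in KP and 1.32 in KPG1, above 87.8% and 97.6% of genes, and 0.91 in KPG1 without KPG1 replicate 5. Hmga1 had 0.24 in both groups, at the 20.9 percentile in KP and near the median gene in KPG1 (46.1 percentile). Runx1 had 0.65 in KP (76.3 percentile) and 0.20 in KPG1 (34.2 percentile), and its KP value was 0.18 without KP replicate 5. Hnf4a, Runx2 and Gkn2 lay between, from the 57.7 to the 81.8 percentile.

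**Figure D4:**
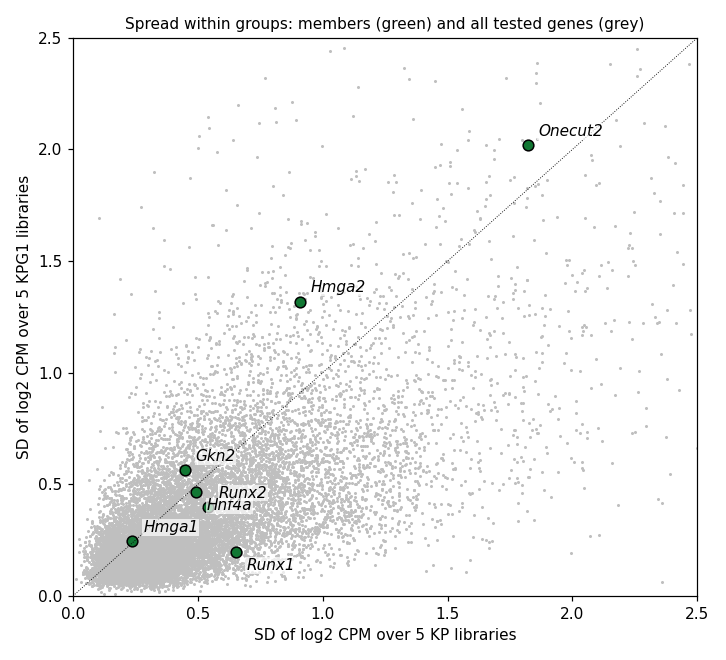
Each point is 1 tested gene, by its SD of log2 CPM over 5 KP libraries and over 5 KPG1 libraries, with the 7 tested members in green, the dotted line where both are equal and 97 genes outside the axes. Onecut2 (1.82 and 2.02) stands farthest out among the members, then Hmga2 (0.91 and 1.32), while Hmga1 (0.24 in both) sits inside the dense cloud.

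Whether members varied together was asked over 10 tumours after centring log2 CPM within each group, so that genotype added nothing. Of 21 pairs, 0 passed an adjusted p of 0.05 by exact permutation within groups, and 2 had an unadjusted p under 0.05. The closest pair was Hnf4a and Onecut2 (Pearson r = 0.891, exact p = 0.00396, adjusted p = 0.0831; Spearman rho = 0.750, exact p = 0.0336, adjusted p = 0.353). Leaving out KP replicate 2 and KPG1 replicate 1, the tumours farthest from the Hnf4a median, gave r = 0.646. Hmga2 followed with Gkn2 (r = 0.755, exact p = 0.0308, adjusted p = 0.281; rho = 0.400, exact p = 0.311, adjusted p = 0.726; r = 0.540 without KPG1 replicates 1 and 5) and with Onecut2 (r = 0.705, exact p = 0.0506, adjusted p = 0.281; rho = 0.800, exact p = 0.0192, adjusted p = 0.353; r = 0.582 without KPG1 replicates 1 and 5). The closest negative pair was Runx1 and Runx2 (r = -0.648, exact p = 0.0622, adjusted p = 0.281; rho = -0.450, exact p = 0.246, adjusted p = 0.646), which stood at r = -0.174 without KP replicate 5 and KPG1 replicate 2.

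**Figure D5:**
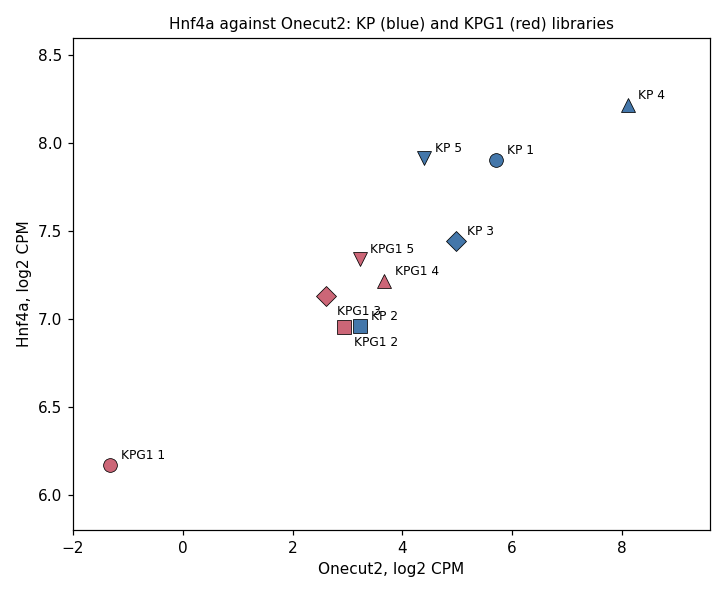
Log2 CPM of Hnf4a is plotted against that of Onecut2 in 10 libraries, KP in blue and KPG1 in red, before centring. KP replicate 4 holds the upper right (276 CPM of Onecut2, 297 CPM of Hnf4a) and KPG1 replicate 1 the lower left (0.350 and 72.0 CPM), with the other 8 between.

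The genes whose centred pattern was most like each member's, among 12876 others averaging 1 or more on the log2 CPM scale, are given as a description. For Hmga2 these were Snx12, Cks1b and Lphn3 (r = 0.971, 0.952 and 0.949 over 10 tumours). For Hnf4a they were Gm12577, Fermt1 and Eif2s2 (r = 0.985, 0.975 and 0.967), and for Onecut2 Timm8a1, Gm12445 and Eps8l3 (r = 0.975, 0.946 and 0.946). Hmga1 was nearest to Gm10263, Gm9826 and Ifi202b (r = 0.935 to 0.916), Runx2 to Gpatch11, Tubgcp6 and Ankrd1 (r = 0.964 to 0.944) and Gkn2 to Gm12576, Cdk16 and Cep41 (r = 0.950 to 0.932). Runx1 was nearest to Usp25, 1700021K19Rik and Gm608 (r = 0.989 to 0.982), and 299 genes had an r over 0.9 with it, against 3 to 23 for the other members. Without KP replicate 5 the number for Runx1 was 23, over 9 tumours.

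Depth ranged from 32427029 to 49534284 counts per library. Of the epithelial markers, 8 of 8 were detected in each tumour, with sums of 4728 to 6290 CPM in KP and 3679 to 4315 CPM in KPG1, so the groups did not overlap. The keratins carried this difference, with log2 fold changes of -0.67 for Krt8, -0.87 for Krt18 and -0.79 for Krt19, while Epcam (0.05), Cldn3 (0.08), Cdh1 (-0.10), Cldn7 (-0.19) and Nkx2-1 (0.33) had unadjusted p from 0.122 to 0.771. Ptprc, which encodes CD45, was low at 5.21 to 9.98 CPM in KP and 5.42 to 10.97 CPM in KPG1, and 14 of 15 leukocyte markers were in the table, with sums of 59.6 to 105 and 40.5 to 75.9 CPM and Cd3e and Nkg7 at 0 in 1 KPG1 library each. Of 11 leukocyte markers tested, 9 had lower fitted levels in KPG1, against 7669 of all 16216 genes. At an unadjusted p under 0.05, 4 of the 11 were lower, against 6.31% of all genes, and 0 passed an adjusted p of 0.05. These 4 were the myeloid genes Itgam (-1.04), Csf3r (-1.09), S100a8 (-1.84) and S100a9 (-1.98, in log2 fold change). Of these, Itgam, S100a8 and S100a9 did not overlap between the groups, a separation seen with KPG1 lower for 1.76% of all genes. Endothelial markers summed to 408 to 1240 CPM in KP and 570 to 1734 CPM in KPG1, and fibroblast markers to 160 to 335 and 222 to 402 CPM. Sums of club cell markers were 29.0 to 158 and 123 to 323 CPM, of ciliated cell markers 19.7 to 43.8 and 19.0 to 41.5 CPM, of alveolar type 1 markers 896 to 3216 and 1787 to 3361 CPM, and of mesothelial markers 79.7 to 319 and 85.7 to 243 CPM. The part of these markers in the members' levels was not tested.

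The tumour progression list of 35 genes, chosen like the other lists with earlier results known, holds Hmga2 and Onecut2 too. Of 34 tested, 23 had lower fitted levels in KPG1, against 7669 of all 16216 genes, and 0 passed an adjusted p of 0.05 in limma. At an unadjusted p under 0.05, 13 were lower and 1 was higher, against 6.31% and 5.26% of all genes. Its median log2 fold change was -0.40. Krt18 and Krt8, keratins of simple epithelia, had the smallest p-values (log2 fold change -0.87 and -0.67, adjusted p = 0.0501 and 0.0699), and neither overlapped between the groups. Ascl2, a stem cell factor of the gut, was higher by 0.87 at levels under 1 CPM (adjusted p = 0.414). Of 15 proliferation genes, 14 had higher fitted levels in KPG1, against 8547 of all 16216 genes, at a median log2 fold change of 0.85. None passed an adjusted p of 0.05, and 3 were higher at an unadjusted p under 0.05, against 5.26% of all genes. The sum of these genes was lowest in KP replicate 5, at 177 CPM, while the other KP tumours (481 to 605 CPM) overlapped KPG1 (484 to 796 CPM). Ccna2 and Top2a did not overlap between the groups (log2 fold change 1.22 and 1.03, adjusted p = 0.238 and 0.360). DESeq2 called 4 genes of the let-7 and Lin28 list, 2 HMG genes, 4 of the gastric and intestinal list, 1 of the RUNX list, 1 of the lung lineage list and 11 of the tumour progression list, while edgeR called 0 in each, and limma without KP replicate 5 called 9 of the tumour progression list, 2 of the let-7 and Lin28 list and 1 HMG gene. Over all genes DESeq2 called 423 lower and 125 higher, and limma without KP replicate 5 called 223 lower and 71 higher. Library weights in limma called 6 genes of the tumour progression list and 1 of the let-7 and Lin28 list. Marker genes were called in the same settings: DESeq2 called 3 leukocyte, 3 epithelial and 1 club cell marker, limma without KP replicate 5 called 3 epithelial markers, and library weights called 2 leukocyte and 2 epithelial markers.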

How the data were processed

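RNA from the CD45-negative cells of 10 tumours (5 KP, 5 KPG1) was sequenced from stranded mRNA libraries. The submitters' processing notes name bcl2fastq 2.17, cutadapt 1.4.2, HISAT2, featureCounts 1.4.4 and edgeR with build mm10, and the strand setting of the count is not given in the sources used here. The deposited counts are whole reads per gene, made by the authors and not normalized, in single tables and in a joint table (390170 of 390170 values equal). The authors' table of log2 values was not used. Counts of a gene rise with its length and depth, and reads of near-identical copies can be split.

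Genes were filtered with filterByExpr (edgeR 4.0.16), scaled by TMM, transformed by voom and fitted with limma 3.58.1 in R 4.3.3 with genotype as the only term and Benjamini-Hochberg adjustment over 16216 genes. The study filtered on TPM, so filterByExpr took its place. Single members were also compared by a two-sided exact permutation test of mean log2 CPM (prior count 2), with no adjustment over members. Relations were tested by exact permutation within groups. Depth was 32427029 to 49534284 counts per library, and floors of 3 counts cover counting error only. The fit was also run on simulated counts with 200 genes changed. These held no outlying library such as KP replicate 5, and no result here draws on them. Alternatives were DESeq2 1.42.0, edgeR quasi-likelihood, RLE factors, no filter, library weights, a replicate block, single libraries left out and a prior count of 0.5. Sequences came from RefSeq (GRCm38.p6) and GENCODE M21. The members and gene lists were chosen with earlier results of these data known. Named genes were the members, Slc2a1, list genes past the threshold, the 2 list genes per direction with the smallest unadjusted p under 0.05 (marker lists excepted), and the 3 genes most like each member. Tff1, Tff2, Tff3 and the leukocyte and epithelial markers were named, and libraries left out of the spread and likeness, after the values were seen. The alleles engineered to initiate tumours and some list genes are not reported here.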

Additional observations from a re-analysis of the deposited data

Results flagged for a closer look

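Tumours stood apart from the other 4 libraries of their group in the level of 3 members, by Dixon's criterion for 5 samples (gap over range above 0.71), among 20 groups searched, where chance flags about 1 in 20. Runx1 in KP replicate 5 was 7.97 log2 CPM (251 CPM), with a gap of 0.781 of the range. Of all genes tested, 22.2% were highest in KP replicate 5, so that tumour stood apart in more than Runx1. Gkn2 in KPG1 replicate 5 was 10.16 log2 CPM (1144 CPM), with a gap of 0.786. Onecut2 in KPG1 replicate 1 was -1.32 log2 CPM (0.350 CPM), with a gap of 0.788 on the low side. No cause was tested for these values.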

How the results depend on the processing

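In limma, 10 genes passed an adjusted p of 0.05 upwards in KPG1 and 18 downwards. The edgeR test called 29 lower, DESeq2 125 higher and 423 lower, the fit with no filter on low counts 31 lower, and library weights 51 higher and 177 lower. The labels' replicate number did not pair the tumours (correlations of same-numbered deviations from -0.16 to 0.076), and the replicate block left 4 higher and 1 lower. Leaving out 1 library at a time gave 3 to 71 higher and 1 to 223 lower, the highest without KP replicate 5, and leaving out KP replicates 1 and 4 together, added after the data were seen, gave 3 higher and 1 lower. Of the members, DESeq2 called 3 lower, and the libraries left out in turn gave 0 to 1. With 1 library left out, the log2 fold change of Gkn2 ran from -0.337 (without KPG1 replicate 5) to 0.0121 (without KP replicate 2), turning positive also without KPG1 replicate 3 (0.00222), and that of Runx1 from -0.364 (without KP replicate 3) to 0.0356 (without KP replicate 5). Hmga1 ranged from -0.66 to -0.50, Hmga2 from -2.75 to -1.81, Hnf4a from -0.91 to -0.43, Onecut2 from -3.67 to -2.11 and Runx2 from -0.45 to -0.04, each lower in 18 of 18 alternatives. Adjusted p over these alternatives ran from 0.0245 to 0.485 for Hmga1, 0.0221 to 0.518 for Hmga2, 0.108 to 0.697 for Hnf4a and 0.0256 to 0.579 for Onecut2. The cause of these shifts was not tested. The counts by exact test (5 members) and of relations (0) were the same with a prior count of 0.5. Depth limits Lin28b and Pdx1 only.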

Other observations

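Genes whose longest 3′ UTR holds the let-7 seed match CTACCTC were compared with those without it, as values only. Of 1451 tested genes with at least 1 match, 44.5% had a lower fitted level in KPG1, at a median log2 fold change of 0.05. Of 12527 without a match the share was 44.7% and the median 0.04. Of the 24 with 3 or more matches, Hmga2 among them, 14 were lower, at a median of -0.04.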
